A study of Mus musculus with 200 samples.

Results

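The imprinted genes of mouse chromosome 6 were followed as 9 named members of the 22033 genes measured: Mest, Klhdc10, Copg2, Peg10, Sgce, Asb4, Ppp1r9a, Nap1l5 and Herc3. They were chosen by name and position, not by a threshold on a measured value, but with earlier results of these data known. Whole mouse embryos of embryonic day 11.5 were profiled by 3SEQ, an RNA sequencing method that reads mainly the 3′ ends of transcripts. All embryos came from the inbred strains C57BL/6J (B6) and CAST/EiJ (Cast), without any treatment or engineered allele. The mother is written first in each cross name, so 8 F1 embryos of B6xCast had a B6 mother and 8 F1 embryos of CastxB6 had a Cast mother. In the backcross, 89 genotyped N2 embryos of B6xF1 had a B6 mother and an F1 father, so a Cast allele was always paternal, and 65 genotyped N2 embryos of F1xB6 had an F1 mother and a B6 father, so a Cast allele was always maternal. The F1 parents had B6 mothers and Cast fathers, and an N2 embryo was at each gene either heterozygous or homozygous for B6.

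Genomic imprinting is the expression of a gene mainly from the copy of 1 parent, set by DNA methylation that differs between egg and sperm and is kept in the embryo. A cluster usually has a control region whose methylation state is read by several neighbouring genes, some transcribed from the paternal and others from the maternal copy. Bias can be near complete in every tissue, or limited to some tissues, in which case RNA from a whole embryo shows a partial bias. Reciprocal crosses separate the parent an allele came from and the strain it came from.

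The members lay in 3 domains of chromosome 6 (mm9, GENCODE vM1). The Peg10 domain held Sgce (4624350 to 4697204, minus strand), which encodes epsilon-sarcoglycan of the cell membrane, Peg10 (4697306 to 4710514, plus strand), a gene derived from a retrotransposon and needed for the placenta, Ppp1r9a (4853004 to 5115661, plus strand), which encodes the actin-binding protein neurabin, and Asb4 (5333386 to 5383022, plus strand), which encodes an ankyrin repeat protein with a SOCS box that recruits substrates to ubiquitin ligases. Sgce and Peg10 were head to head with 101 bases between their starts. The Mest domain held Klhdc10 (30351868 to 30405179, plus strand), a kelch domain protein, Mest (30673547 to 30698457, plus strand), an alpha/beta-hydrolase fold protein of mesoderm, and Copg2 (30697554 to 30846794, minus strand), a subunit of the COPI vesicle coat. Exons of Mest and Copg2 overlapped over 904 bases on opposite strands, and whether reads were counted by strand is not given in the sources used here, so the levels and allele votes of Copg2 are uncertain. The Nap1l5 domain held Nap1l5 (58855228 to 58857120, minus strand), an intronless nucleosome assembly protein gene that lies within an intron of Herc3 (58781459 to 58870392, plus strand), a ubiquitin ligase gene, and their exons shared 0 bases. Genotypes of N2 embryos did not differ between genes of 1 domain, but those of the Mest and Nap1l5 domains differed in 27 of 154 embryos and those of the Peg10 and Mest domains in 7.

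Promoter sequences are shown for Mest and Nap1l5, expressed from the paternal copy, and for Asb4, expressed mainly from the maternal copy, since cytosines followed by guanine are the letters that imprinting methylates. Each runs 5′ to 3′ over 300 bases (250 before and 50 after the start), from RefSeq on GRCm38.p6, a later build than the mm9 coordinates above, and capitals mark each CG. Of the 9 members 7 had an entry, and Peg10 and Sgce had none.
Mest (chr6:30737800-30738099, plus strand): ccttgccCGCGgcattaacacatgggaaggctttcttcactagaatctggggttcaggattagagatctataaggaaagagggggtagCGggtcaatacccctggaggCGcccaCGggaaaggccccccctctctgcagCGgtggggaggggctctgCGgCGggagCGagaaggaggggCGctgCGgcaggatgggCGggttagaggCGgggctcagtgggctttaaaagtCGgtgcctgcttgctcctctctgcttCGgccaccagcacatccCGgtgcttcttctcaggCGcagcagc
Nap1l5 (chr6:58907077-58907376, minus strand): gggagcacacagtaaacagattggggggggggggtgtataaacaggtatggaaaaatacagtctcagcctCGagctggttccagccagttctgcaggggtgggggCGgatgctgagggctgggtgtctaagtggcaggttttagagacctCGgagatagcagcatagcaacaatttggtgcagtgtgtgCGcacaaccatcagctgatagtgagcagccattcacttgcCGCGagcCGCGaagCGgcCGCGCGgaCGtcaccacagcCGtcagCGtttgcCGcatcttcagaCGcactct
Asb4 (chr6:5390160-5390459, plus strand): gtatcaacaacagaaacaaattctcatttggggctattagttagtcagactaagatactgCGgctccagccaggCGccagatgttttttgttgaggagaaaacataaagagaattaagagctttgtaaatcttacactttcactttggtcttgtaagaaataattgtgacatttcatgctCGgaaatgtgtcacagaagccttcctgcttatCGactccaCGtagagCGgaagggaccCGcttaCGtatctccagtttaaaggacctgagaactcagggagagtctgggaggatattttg
The CG pair, which reads the same on both strands, was found at least 1 time in 94.6% of 32851 promoters of this length. The Mest and Nap1l5 promoters shown each had 17 CG pairs, a number reached by 31.4% of promoters, and that of Asb4 had 8, a number reached by 48.6%. Mest had 3 entries, of which the one farthest upstream held 8 pairs. The Asb4 promoter shown is its downstream entry, and the upstream one (chr6:5383136-5383435) held 6. Among the other members, Klhdc10 held 21 pairs, Copg2 25, Ppp1r9a 48 and 10 in its 2 entries and Herc3 4, against a median of 7 over all promoters. These counts are a description of the letters only, since methylation was not measured.

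The F1 embryos had 15703888 to 38234229 counted reads and the N2 embryos 245220 to 5370322, so N2 embryos gave few allele votes for genes of low level. All 9 embryo markers examined were present in the F1 embryos. Placental markers summed to at most 0.0641 RPM (reads scaled to a library total of 1e+06) in B6xCast and to at most 0.579 RPM in CastxB6, the latter in replicate 1, where they included 20 reads of Prl3b1, a placental lactogen. Of the N2 embryos, 11 with B6 mothers and 7 with F1 mothers had 10 placenta and decidua markers summed to at least 1 RPM. In a library of under 1e+06 reads a single marker read reaches this level. The 2 F1 crosses also differed in stage, with litters of 58 to 63 and 48 to 50 somites in B6xCast and of 41 to 43 and 46 to 48 somites in CastxB6. In whole embryos, fewer cells of a type and less RNA per cell cannot be told apart.

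The first question was which copy each member was expressed from. An allele vote is a read assigned to 1 strain through a base that differs between the strains, and the maternal share is the percentage of votes for the mother's allele. A member was called where the pooled votes differed from 50% in both F1 crosses toward the same parent (exact binomial test, Bonferroni over 11903 genes, threshold 0.01), and full where the mean maternal share was at most 5% or at least 95% in both crosses. Of the 9 members 6 were called, against 1.36% of all genes tested and 1.17% of 597 genes on chromosome 6. Mest, Peg10, Sgce and Nap1l5 were paternal and full, where 0.235% of all genes were called paternal. Asb4 and Klhdc10 were maternal and partial, where 1.13% of all genes were called maternal. Copg2, Ppp1r9a and Herc3 were not called.

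Mest had the deepest votes of the members. Its maternal share ranged over embryos from 0% through a median of 0.0918% to 0.247% with B6 mothers (0.122 ± 0.0983, SD, 8 embryos). With Cast mothers it ranged from 0% through 0.109% to 0.348% (0.122 ± 0.111). No embryo of either cross came near equal expression. The pooled shares were 0.111% of 14454 votes and 0.119% of 13470 votes. In N2 embryos genotyped as homozygous for B6, 0.138% of Mest votes with B6 mothers and 0.0894% with F1 mothers went to Cast. Such votes can be B6 reads assigned to Cast, which bear on the share with Cast mothers only, or can come from a wrong genotype.

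Peg10 was as one-sided. Its maternal share ranged from 0% through a median of 0% to 0.160% with B6 mothers, and from 0% through 0.0434% to 0.585% with Cast mothers. Pooled, the maternal allele took 0.0467% of 4287 votes and 0.0885% of 6217 votes. The quasi-binomial model over embryos gave Peg10 an adjusted p of 1.16e-17, and Mest one of 7.75e-21.

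Sgce, which starts beside Peg10 and runs the other way, had a small maternal share of votes that Peg10 did not show. With B6 mothers it ranged from 0% through a median of 1.26% to 7.14%, and with Cast mothers from 0% through 5.07% to 7.96%, so the crosses overlapped. Pooled it was 1.54% of 779 votes (95% Wilson interval 0.883 to 2.67) and 5.92% of 1689 votes (4.89 to 7.15). These intervals, like all intervals and limits given here, cover counting error only. In N2 embryos genotyped as homozygous for B6, 1.67% of Sgce votes with B6 mothers and 0% with F1 mothers went to Cast. For Peg10 it was 0% with either mother. Part of the Sgce share with Cast mothers can thus be B6 reads assigned to Cast, which was not tested. Sgce lay close to the threshold for full bias with Cast mothers (mean 4.78%), and with the threshold moved to 1% and 99% it counted as partial while Mest, Peg10 and Nap1l5 did not.

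For Nap1l5 the maternal allele had 0 of 176 votes with B6 mothers, which allows a share of up to 1.70%, and 0 of 40 votes with Cast mothers, which allows up to 7.50%. Every embryo of both crosses was at 0%, but the Cast-mother limit lies above the 5% level that defines full bias. With a minimum of 50 votes per cross Nap1l5 was no longer tested.

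Asb4 was the most biased of the maternal members. With B6 mothers the maternal share ranged from 80.6% through a median of 81.5% to 98.3% (85.99 ± 7.00, SD, 8 embryos). With Cast mothers it ranged from 85.2% through 92.6% to 94.99% (91.8 ± 3.49). In every F1 embryo the maternal allele was the higher one and the paternal allele was still read. Pooled shares were 84.4% of 744 votes (81.6 to 86.8) and 93.4% of 2662 votes (92.4 to 94.3).

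Klhdc10, at the far side of the Mest domain from Copg2, had a weaker maternal bias. The maternal share ranged from 54.9% through a median of 62.9% to 66.3% with B6 mothers, and from 60.95% through 68.2% to 75.7% with Cast mothers. The maternal allele was the higher one in 16 of 16 embryos. Pooled shares were 61.9% (58.4 to 65.3) and 68.3% (65.8 to 70.6), with Bonferroni-adjusted exact binomial p of 5.11e-07 and 1.36e-41. The call was lost in the litters of matched stage and without the oldest litter, which hold fewer votes.

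The members not called had few votes or shares on both sides of 50%. Ppp1r9a ranged from 43.5% through a median of 61.7% to 76.2% with B6 mothers and from 34.6% through 51.9% to 74.03% with Cast mothers, with pooled shares of 59.4% of 320 votes (53.9 to 64.6) and 55.2% of 382 votes (50.2 to 60.1). Herc3, the host of Nap1l5, had pooled shares of 50.2% of 205 votes and 65.9% of 185 votes (58.9 to 72.4), the latter with a Bonferroni-adjusted exact binomial p of 0.205. A difference from equal expression of the size seen in Klhdc10 lay within the range of Herc3 embryos, which ran from 36.4% to 90% with Cast mothers. Copg2 had 27 votes with B6 mothers and 46 with Cast mothers in all, against 971 to 3651 reads per embryo, and its pooled shares of 37.04% and 63.0% were on both sides of 50%.

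**Figure D1:**
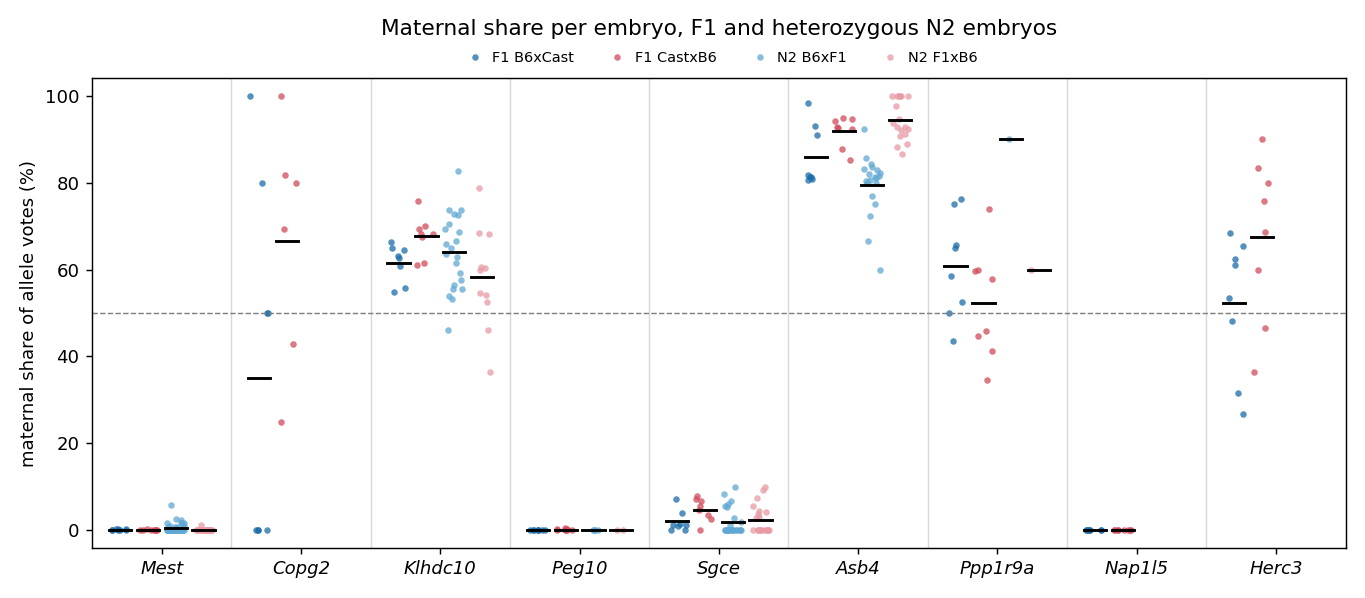
Maternal share of allele votes (percent, vertical axis) of each member in F1 embryos and in heterozygous N2 embryos, by cross, with 1 point per embryo and bars at the mean over embryos, N2 embryos with under 10 votes left out. Mest, Peg10, Sgce and Nap1l5 sit near 0%, Asb4 at 80.6% or more in every F1 embryo, and Klhdc10 above 50% in 16 of 16 F1 embryos.

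The heterozygous N2 embryos repeated the measurement in other embryos, with the Cast allele paternal or maternal. The study called genotypes from allele reads of expressed genes along each chromosome, so the choice of heterozygous embryos was not independent of the votes. Of 7 members with at least 20 votes in each cross 4 were called, against 0.358% of 9215 genes: Mest, Peg10 and Sgce as paternal, where 0.228% of genes were, and Asb4 as maternal, where 0.13% of genes were. Copg2 and Nap1l5 had too few votes. Flanking genes gave a heterozygous reading for only 12 of 73 heterozygous embryos in the Peg10 domain. They did so for 65 of 70 in the Mest domain and 69 of 74 in the Nap1l5 domain. Among only those embryos Mest, Peg10, Sgce and Asb4 were called as well.

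The maternal share of Mest was 0.403% of 4470 votes in B6xF1, where the highest of 42 embryos was at 5.88%, and 0.044% in F1xB6. Peg10 had 0.585% of 171 votes in B6xF1 and 0 of 138 votes in F1xB6, which allows up to 2.17%. Sgce had 1.78% and 3.05%. In embryos genotyped as homozygous at Sgce, 1.67% of 718 votes with B6 mothers and 0% of 462 votes with F1 mothers went to Cast. As B6 reads assigned to Cast they would bear on shares where Cast is maternal, in F1xB6 and in CastxB6. Wrong genotypes can also give such votes, and which applies was not tested. Nap1l5 had 1 maternal vote of 39 in B6xF1 and 0 of 6 in F1xB6. The paternal members were thus near 0% in both backcrosses, with Nap1l5 resting on few votes.

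Asb4 had a maternal share of 82.03% in B6xF1 (80.4 to 83.5), and its 20 embryos with at least 10 votes ranged from 59.9% through a median of 81.2% to 92.3%. In F1xB6 it was 93.3% (92.1 to 94.3), and 18 embryos ranged from 86.7% through 93.3% to 100%. As in the F1 crosses, the share was higher where the maternal allele was Cast, and the difference between the backcrosses was not tested. The embryos with placenta or decidua markers had nearly the same share as the others, 82.9% against 80.3% in B6xF1 and 94.1% against 92.98% in F1xB6. The 5 heterozygous B6xF1 embryos with markers gave 1570 of the 2313 votes, so the pooled share rests mostly on them. The 6 of F1xB6 gave 534 of 2023 votes. Of the homozygous Asb4 votes 0.195% and 1.00% went to Cast, and 1 embryo of F1xB6 genotyped as homozygous had Cast votes only.

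Klhdc10 had maternal shares of 64.4% and 61.6% in the backcrosses, both above 50%, with Bonferroni-adjusted exact binomial p of 1.37e-08 and 0.128, so it was not called at this depth. It was called with the quasi-binomial model (adjusted p = 5.87e-08) and with the Benjamini-Hochberg adjustment. Ppp1r9a had 63.8% of 105 votes and 53.1% of 64 votes, and Herc3 35.7% and 53.6%, and neither was called.

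Because the shares of partial genes can depend on the strain of the alleles, the F1 votes were also tested for strain with a term for cross (quasi-binomial model, Benjamini-Hochberg over all genes, threshold 0.01). Of the 9 members 2 passed, against 36.5% of genes. The pooled maternal share of Sgce was 4.38 percentage points higher with Cast mothers (adjusted p = 0.00333) and that of Asb4 8.97 points higher (adjusted p = 0.00441). An exact permutation test over embryos, two-sided, gave p = 0.0508 for Sgce, 0.0545 for Asb4 and 0.0166 for Klhdc10, whose adjusted p in the quasi-binomial model was 0.0225. Between the litters of matched stage the difference was 0.99 points for Sgce (adjusted p = 0.651) and 6.23 points for Asb4 (adjusted p = 0.243), and without the oldest litter neither passed (adjusted p = 0.117 and 0.128). Without CastxB6 replicate 1, which had the most placental reads, Sgce still passed (0.00634) and Asb4 did not (0.0146).

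The maternal shares of F1 and N2 embryos were compared on each side in the same way. No member passed at 0.01 in the quasi-binomial model, where 9.01% of genes passed with the Cast allele paternal and 5.01% with it maternal. The lowest adjusted p was 0.0337, for Mest with the Cast allele paternal.

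Genes around the members were examined for the extent of the bias. Of 39 neighbours found, 28 had enough votes to be tested in F1. Klf14, a transcription factor gene on the list of neighbours of Mest, had 100% of 20 and of 28 votes from the maternal allele and was not called (larger Bonferroni-adjusted exact binomial p = 0.0227). Near Peg10, Pon2 (89.3% with B6 mothers and 11.8% with Cast mothers) and Pon3 (73.7% and 25.8%), both paraoxonase genes, followed the B6 allele and not a parent. Of 38 other imprinted genes listed, 34 were tested in F1 and 29 called. By their pooled shares 20 were full and 9 partial, whereas the members were classed by the mean over embryos. Classed by pooled share, Sgce (5.92% with Cast mothers) would be partial.

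By the distance between pooled B6 allele fractions in the 4 crosses, over 9083 genes, the gene nearest to Mest was Snrpn (0.00179) and the gene nearest to Peg10 was Kcnq1ot1 (0.0034), both of chromosome 7. Sgce was nearest to Usp29 (0.0534), Asb4 to Slc22a18 (0.155) and Klhdc10 to Ascl2 (0.121). The distance of Asb4 to its nearest gene was thus the greatest of these 5. These likenesses are a description over 4 crosses, whose votes share libraries.

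Total levels were then compared between the F1 crosses, which hold the same autosomal genotype and differ in the mother and in stage. They also differ in the strain of each parental copy, as the paternal copy was Cast in B6xCast and B6 in CastxB6. A member read from 1 parental copy was thus read from another strain in each cross. Across all F1 embryos the mother, the stage and the strain of the expressed copy cannot be told apart. The matched-stage litter of CastxB6 shared only 1 of its 2 sequencing runs with the other 3 litters, so between the matched litters the cross and the run cannot be told apart. Of the 9 members 3 passed (edgeR quasi-likelihood test, Benjamini-Hochberg, threshold 0.05), against 25.9% of 14625 genes: Mest and Asb4 were higher with Cast mothers, as 13.6% of genes were, and Nap1l5 was higher with B6 mothers, as 12.3% were. The share of members is near that of all genes.

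Mest ranged from 495 through a median of 548 to 731 RPM in B6xCast and from 559.9 through 787 to 1114 RPM in CastxB6. The crosses overlapped, and the embryos of the youngest litter were the highest, at 799.9 RPM or more. The log2 difference was 0.62 (SE 0.15, edgeR adjusted p = 0.00784), and 0.19 (adjusted p = 0.252) between the litters of matched stage.

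Asb4 ranged from 9.18 through 10.4 to 12.5 RPM in B6xCast and from 16.3 through 19.3 to 137.5 RPM in CastxB6. The crosses did not overlap. The log2 difference was 1.94 (SE 0.44, edgeR adjusted p = 0.00476). CastxB6 replicate 1 alone was at 137.5 RPM, and without it the difference was 1.17 (edgeR adjusted p = 0.00155), without replicates 1 and 6 it was 0.89 (0.000421), and between matched litters 1.19 (0.0243). Replicate 1 had 20 reads of the placental lactogen Prl3b1 against 0 to 3 in the other F1 libraries, and their part in its Asb4 level was not tested.

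Nap1l5 ranged from 1.68 through 3.51 to 7.56 RPM in B6xCast and from 0.261 through 1.32 to 2.01 RPM in CastxB6, with overlap. Its log2 difference was −1.72 (SE 0.34, edgeR adjusted p = 0.00208). By litter the medians followed the somite counts, with 6.46 RPM in the oldest litter, 2.93 and 1.77 RPM in the middle litters and 0.725 RPM in the youngest, and between matched litters the difference was −0.73 (adjusted p = 0.0466).

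The 6 other members did not pass, and the crosses overlapped for each of them. Their log2 differences ran from −0.17 for Klhdc10 to 0.39 for Sgce (edgeR adjusted p = 0.269). Peg10 ranged from 132 through a median of 206 to 238 RPM in B6xCast and from 94.5 through 210.0 to 241 RPM in CastxB6. Its log2 difference was 0.00, and its levels split by litter within each cross, with medians of 147 RPM in the oldest B6xCast litter and 213 RPM in the other, and of 234 RPM in the youngest CastxB6 litter and 127 RPM in the other. Between the litters of matched stage Peg10 was higher with B6 mothers, at −0.75 (edgeR adjusted p = 0.0164). Sgce had medians of 15.9 and 19.3 RPM, and Klhdc10 of 149 and 117 RPM. Ppp1r9a (5.53 and 5.81 RPM) and Herc3 (2.42 and 2.65 RPM) were low in both crosses, and Copg2, whose reads may include those of Mest, had medians of 70.1 and 60.4 RPM. Among the neighbours tested, Bet1, Slc25a13 and Acn9 were higher with Cast mothers and Hpgds was higher with B6 mothers. Among 38 other imprinted genes 1 was higher with Cast mothers (Gnas) and 10 with B6 mothers, against 13.6% and 12.3% of all genes. Between the litters of matched stage, which hold fewer embryos, Bet1 and Slc25a13 still passed, and Acn9 and Hpgds did not. Of the other imprinted genes 2 were then higher with Cast mothers (Gnas and Usp29) and 4 with B6 mothers (Kcnq1ot1, Slc22a18, Grb10 and Meg3).

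**Figure D2:**
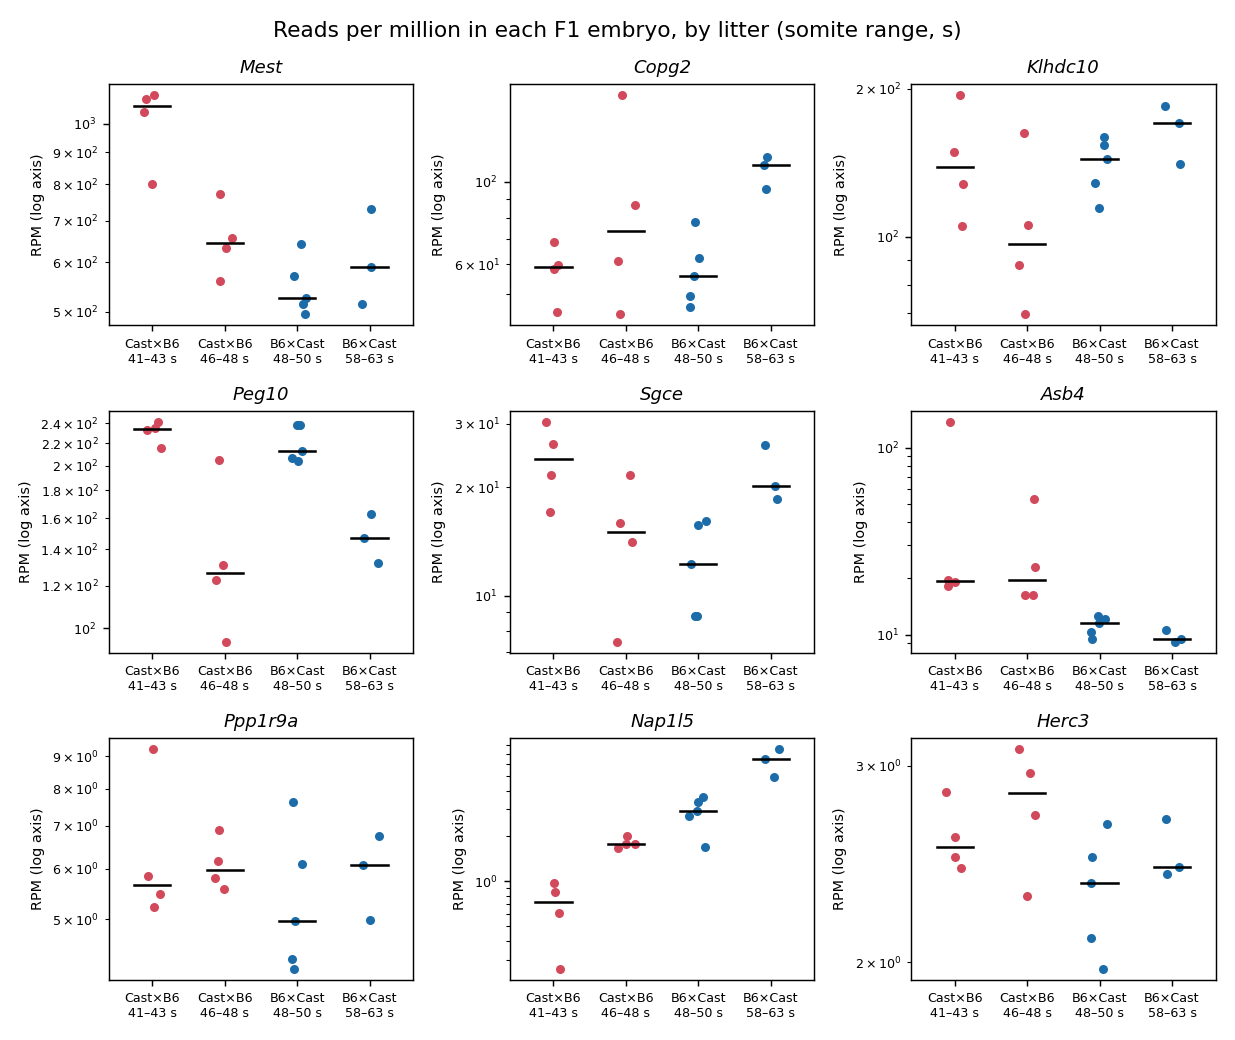
Level of each member in RPM (log axis) in the 16 F1 embryos, 1 point per embryo with the litter median as a bar, by cross and litter. Asb4 lies at 9.18 to 12.5 RPM in B6xCast and at 16.3 to 137.5 RPM in CastxB6, and Nap1l5 runs from 7.56 RPM down to 0.261 RPM.

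In the N2 embryos the mothers differed in genotype, B6 or F1, and the litters, lanes and mothers went together. Of 7 members tested 1 passed by mother, against 25.1% of 10395 genes in either direction and 14.5% higher with F1 mothers (edgeR quasi-likelihood test). Nap1l5 and Herc3 did not pass the filter on low counts. Klhdc10 had a median of 71.5 RPM with B6 mothers and of 109.0 RPM with F1 mothers, a log2 difference of 0.59 (SE 0.10, edgeR adjusted p = 5.31e-07). Within flowcell 1 the medians were 70.8 and 125.8 RPM (log2 difference 0.55), and within flowcell 2 they were 71.6 and 92.9 RPM (0.07, edgeR adjusted p = 0.705). With embryos summed by litter the adjusted p was 0.253 in edgeR, and with litter as a random block it was 0.323 in limma, where no gene at all passed although 1537 and 980 genes had an unadjusted p under 0.05. Among 31 other imprinted genes 5 were higher with F1 mothers (H13, Nnat, Igf2, Cd81 and Cdkn1c) and 3 were lower (Plagl1, Dlk1 and Mirg). Of all genes 14.5% were higher and 10.6% lower, so the share is near that of all genes. With litter sums or a litter block 0 of the other imprinted genes passed.

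Some members differed far more between the 2 flowcells than between the mothers. The median of Asb4 was 7.65 RPM on flowcell 1 and 43.8 RPM on flowcell 2 with B6 mothers, and 11.2 and 119 RPM with F1 mothers, a ratio of 5.72 and of 10.7. Ppp1r9a, its neighbour, had ratios of 1.90 and 8.25, and Nap1l5, in another domain, had ratios of 2.97 and 8.61. Sgce, beside Peg10, was at 13.6 and 14.7 RPM with B6 mothers and at 10.6 and 21.4 RPM with F1 mothers. Mest moved one way with B6 mothers (482 and 306 RPM) and the other with F1 mothers (262 and 487 RPM), and Klhdc10 had ratios of 1.01 and 0.738. Somite medians differed little between the flowcells (47 and 48.5 with B6 mothers, 49 and 50 with F1 mothers), while median depth was 2938442 and 1583251 reads with B6 mothers and 2348173 and 1909773 with F1 mothers.

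Embryos with placenta or decidua markers numbered 0 on flowcell 1 and 11 on flowcell 2 with B6 mothers, and 4 and 3 with F1 mothers. Asb4 had a median of 212 RPM in the 11 such embryos of B6 mothers against 9.86 RPM in the rest, and of 47.6 RPM in the 7 of F1 mothers against 19.98 RPM. The embryos without such markers still reached 273 and 239 RPM of Asb4. Peg10 had medians of 168 against 76.6 RPM with B6 mothers and of 75.2 against 82.3 RPM with F1 mothers. The part of these tissues, of depth and of the flowcell in the levels was not tested.

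**Figure D3:**
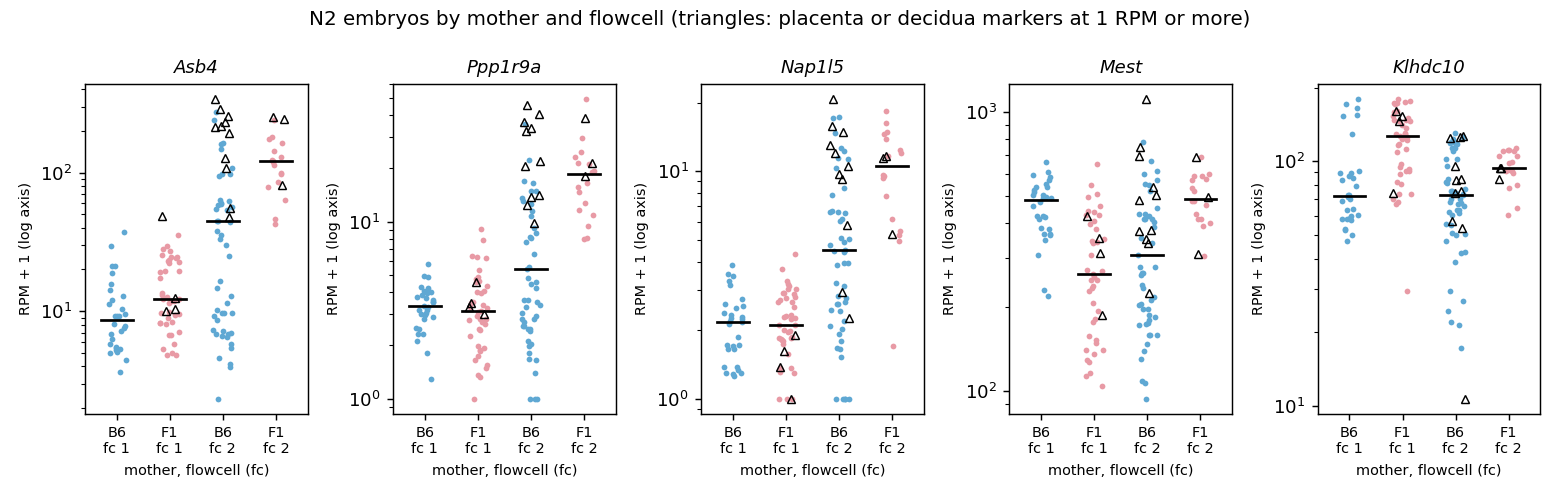
Levels of Asb4, Ppp1r9a, Nap1l5, Mest and Klhdc10 in RPM plus 1 (log axis) in the genotyped N2 embryos by mother and flowcell, 1 point per embryo with the median as a bar and triangles for embryos with placenta or decidua markers. The Asb4 medians go from 7.65 to 43.8 RPM with B6 mothers and from 11.2 to 119 RPM with F1 mothers, while those of Klhdc10 stay within 70.8 and 125.8 RPM.

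The last comparison asked whether an embryo's own genotype at the gene went with its level. A gene expressed from 1 parental copy has its only active copy changed from B6 to Cast in heterozygous embryos of 1 backcross and not of the other. With lane means removed, log2(RPM + 1) was compared between heterozygous and homozygous embryos (two-sided rank-sum test, Benjamini-Hochberg over the 9733 genes whose mean reached 5 RPM, threshold 0.01). Over all N2 embryos 1 of 7 members passed, against 19.7% of genes, and Nap1l5 and Herc3 lay under the level filter.

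That member was Mest, which was higher in heterozygous embryos by 0.26 on the log2 scale (rank-sum adjusted p = 0.00172). The call was lost by the rank-sum test with plain RPM (adjusted p = 0.0896), with litter means removed (0.18, adjusted p = 0.0408) and in embryos of 46 to 52 somites (0.25, adjusted p = 0.0279), each time with heterozygous embryos higher. Its RPM ran from 93.2 through a median of 351 to 783 in 47 homozygous and from 129.9 through 427 to 1116 in 42 heterozygous embryos of B6 mothers. With F1 mothers it ran from 112 through 311 to 601 in 37 homozygous and from 103.7 through 414 to 690 in 28 heterozygous embryos. The groups overlapped widely with either mother. Within a mother the difference was 0.29 with B6 mothers, whose Cast allele is the expressed paternal one (adjusted p = 0.0138 by the rank-sum test), and 0.22 with F1 mothers, whose Cast allele is the silent maternal one (adjusted p = 0.193). The linear model gave 0.28 ± 0.10 (SE) and 0.24 ± 0.11, a difference of −0.04 ± 0.15 between mothers.

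With B6 mothers none of the 7 members passed, against 10.6% of genes in either direction and 6.1% higher in heterozygous embryos. An unadjusted rank-sum p under 0.05 was found for 2 of the 7, Mest and Peg10, and for 2598 of all 9733 genes. The share of members was near that of all genes. Peg10 was higher by 0.27 in heterozygous embryos (rank-sum adjusted p = 0.123). With F1 mothers Asb4 passed, against 11.2% of genes in either direction and 5.8% higher in heterozygous embryos. It was higher by 0.63 in heterozygous embryos (rank-sum adjusted p = 0.00425), in which the mostly expressed maternal copy was Cast. Its RPM ran from 3.79 through a median of 11.7 to 142 in 33 homozygous and from 6.06 through 22.1 to 250.1 in 32 heterozygous embryos. The call was lost with plain RPM, with litter means removed (0.53, adjusted p = 0.107), in embryos of 46 to 52 somites (0.55, adjusted p = 0.0467) and without embryos with placenta or decidua markers (0.56, adjusted p = 0.0183), all by the rank-sum test, with the difference in the same direction each time.

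The difference between mothers was tested as an interaction in a linear model with lane. None of the 7 members passed, against 0.0411% of genes, while 2 members, Asb4 and Peg10, and 460 genes in all had an unadjusted p under 0.05. For Asb4 the heterozygous embryos were higher by 0.11 ± 0.16 (SE) with B6 mothers and by 0.68 ± 0.19 with F1 mothers, an interaction of 0.57 ± 0.25 (adjusted p = 0.952). For Peg10 the values were 0.29 ± 0.12 and −0.08 ± 0.14, an interaction of −0.37 ± 0.18 (adjusted p = 1.00). Asb4 thus had its larger estimate where Cast was maternal and Peg10 where Cast was paternal, but neither interaction could be told from 0 across all genes. Sgce was at 0.24 ± 0.16 and 0.41 ± 0.19, and Klhdc10, Copg2 and Ppp1r9a lay between −0.13 and 0.23 with either mother.

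**Figure D4:**
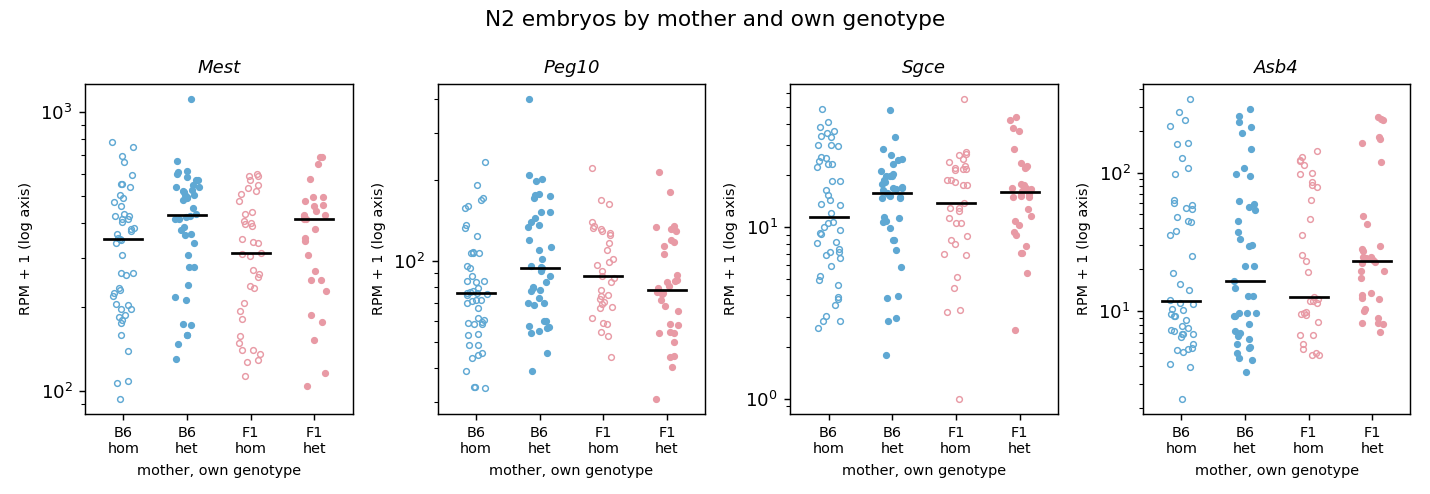
Levels of Mest, Peg10, Sgce and Asb4 in RPM plus 1 (log axis) in N2 embryos by mother and by genotype at the gene, 1 point per embryo with the median as a bar. The heterozygous medians of Mest are 427 and 414 RPM against 351 and 311 RPM in homozygous embryos, with wide overlap.

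**Figure D5:**
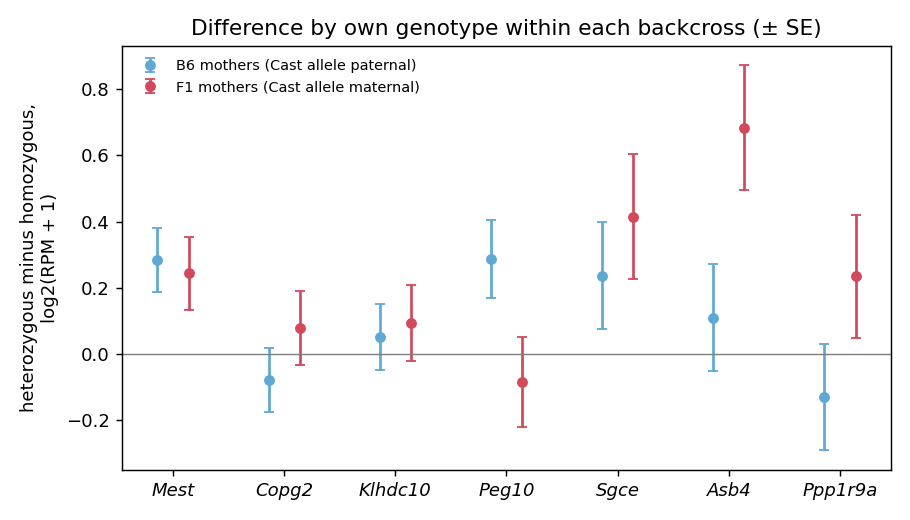
Difference between heterozygous and homozygous N2 embryos in log2(RPM + 1) for the 7 members above the level filter, with B6 and with F1 mothers, as the linear model estimate with bars of 1 SE. Asb4 is at 0.11 and 0.68 and Peg10 at 0.29 and −0.08, and Mest is at 0.28 and 0.24.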

How the data were processed

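Per the labels and the study's methods, the authors aligned 3SEQ reads to mm9 and to a Cast genome with Bowtie2 and counted them over RefSeq exons. The deposited files hold raw read counts per gene and genotype codes. The allele votes deposited by the authors are expected counts that can be fractional and are empty where a gene had no vote, and they were rounded before each binomial test. An F1 value was taken as the sum of 2 runs of an embryo. Of 168 N2 columns, 8 matched no labelled sample and were not used, and 6 matched embryos had no genotypes. RPM were computed from the counts. Levels were tested with edgeR 4.0.16 (TMM), limma 3.58.1 (voom) and DESeq2 1.42.0 in R 4.3.3, and votes and genotypes with numpy 2.4.6 and scipy 1.17.1 in Python 3.11.15. Quasi-binomial models were fitted over embryos. Apart from the permutation tests and the check for single outlying embryos, which covered members only, each test was run over all genes. Tests were tried on simulated data drawn without a litter effect. The permutation tests and limma with a litter block were not tried in this way. Embryos of a litter share a mother, so p-values of tests over single embryos measure the spread between embryos. The binomial tests pooled votes over embryos, and their p-values cover counting error only. Named genes were the members, neighbours called in either generation, up to 5 other called genes of chromosome 6 and the gene nearest to each member in allele fraction, and Klf14, Pon2 and Pon3 and genes that passed in the level tests were named after their values were seen. The values of 1 listed gene are not reported here. The members and lists were chosen with earlier results of these data known. Other settings were vote minimums, litters, flowcells, stage, normalization, filters and batch terms.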

Additional observations from a re-analysis of the deposited data

Results flagged for a closer look

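In 3 of 34 groups of 8 F1 embryos, 1 embryo lay far from the others by Dixon's criterion, which chance meets in about 1 in 20 groups. Copg2 was at 171.3 RPM in CastxB6 replicate 8, with the other embryos at 44.0 to 86.4 RPM. Asb4 was at 137.5 RPM in CastxB6 replicate 1, with the others at 16.3 to 53.5 RPM. Ppp1r9a, the neighbour of Asb4, was at 9.24 RPM in the same embryo, with the others at 5.21 to 6.89 RPM.

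The maternal share differed between the F1 crosses for Sgce (quasi-binomial adjusted p = 0.00333) and for Asb4 (adjusted p = 0.00441), with the higher share where the mother was Cast. In the same test 36.5% of all genes passed. The exact permutation test over embryos gave p = 0.0508 for Sgce and 0.0545 for Asb4, and neither passed between the litters of matched stage.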

How the results depend on the processing

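Of the comparisons of single members with other settings, 411 kept direction and call, 22 lost a call, 5 gained one and 34 turned, of which 33 were of values not called before or after. The genes called for parent of origin in F1 fell from 162 to 53 with the quasi-binomial model, 67 in litters of matched stage and 73 without the oldest litter, and Nap1l5 lost its call at a minimum of 50 votes. Members with a strain bias fell from 2 to 0 in matched litters, without the oldest litter and by exact permutation, and to 1 without CastxB6 replicate 1 or replicates 1 and 6, settings chosen after seeing the data. All genes with strain bias fell from 4345 to 2285 in matched litters. Genes that differed between F1 and N2 numbered 296 and 581 on flowcell 1 and 2 alone (875 on both) with Cast paternal, and 106 on flowcell 2 (463) with Cast maternal. Genes that differed between F1 crosses fell from 3788 to 1549 in matched litters and 2086 without the oldest. By N2 mother, members went from 1 to 0 and genes from 2614 to 0 with litter sums or a litter block. On flowcell 1 alone 3 of 6 members tested were called (Klhdc10, Mest at −0.64 and Asb4), against 4017 of 9745 genes. Flowcell 2 alone gave 1 of 8, Ppp1r9a (0.85, edgeR adjusted p = 0.0217), against 4314 of 11054 genes. Asb4 turned from −0.09 to 0.57 (edgeR adjusted p = 0.0263) on flowcell 1, 0.69 on flowcell 2, 0.0214 with a litter block and 0.38 without embryos with markers. On flowcell 1, Copg2 turned to 0.0907, Peg10 to 0.25 and Sgce to −0.0568, on flowcell 2 Mest to 0.26, with litter sums Sgce to −0.0360 and Ppp1r9a to −0.0732, and with a litter block Ppp1r9a to −0.14. By own genotype, the member called over all N2 embryos (Mest) and that with F1 mothers (Asb4) went from 1 to 0 with plain RPM, litter means or 46 to 52 somites, and Asb4 also without embryos with placenta or decidua markers, a setting chosen after seeing the data. With plain RPM, genes called fell from 1919 to 1183 over all embryos, from 1032 to 598 with B6 mothers and from 1089 to 622 with F1 mothers. The interaction went from 4 genes to 0 without a lane term, where that of Klhdc10 turned to −0.12. Other turns by own genotype were in all embryos Copg2 at 0.0425 and Ppp1r9a at −0.00335 without embryos with markers and Ppp1r9a at −0.10 with litter means and −0.35 RPM with plain RPM, and with B6 mothers Klhdc10 at −0.000592 and Ppp1r9a at 0.10 in 46 to 52 somites, Sgce at −0.20 RPM with plain RPM and Asb4 at −0.0599 with litter means. In allele shares, in percentage points, Copg2 in F1 turned to −1.18 and −6.48 without CastxB6 replicate 1 and replicates 1 and 6, Herc3 in N2 to 3.79 on flowcell 2 and the strain difference of Mest to −0.0139 in matched litters. Differences of N2 from F1 turned with Cast paternal for Peg10 (−0.0467 with at least 10 votes or on flowcell 1), Sgce (−0.106 and −0.612) and Ppp1r9a (−2.62 on flowcell 1), and with Cast maternal for Asb4 (0.381 on flowcell 1), Ppp1r9a (4.77 with at least 10 votes or on flowcell 1) and Herc3 (0.723 on flowcell 2). Without a filter on low counts Copg2 between F1 crosses turned to −0.00354. The cause was not tested. No paired analysis was possible because replicate numbers only name embryos, and embryos of different crosses have different mothers. Few allele votes limit Copg2, Herc3, Ppp1r9a and Nap1l5.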
